A study of Mus musculus with 9 samples.

Results

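The genes described here are 10 heat shock chaperone genes of the mouse: Hspa1a, Hspa1b, Hspa8, Hsp90aa1, Hsp90ab1, Hsph1, Dnaja1, Dnajb1, Hspd1 and Hspe1. They were chosen by name, with earlier results on these arrays known, because several of them differed between the arrays numbered 1 and the arrays numbered 2. Of the 10, 8 had a transcript cluster (the probes of 1 gene locus) annotated to their symbol alone, and all 8 were bright enough to be tested, among 10728 genes tested of 19938 genes on the array. Hspa1b was annotated only on a cluster shared with its near-identical neighbour Hspa1a, and Hsp90ab1 was not analysed here. A label of cytosolic chaperones fits most of the list, but Hspd1 and Hspe1 encode the mitochondrial chaperonin HSP60 and its partner HSP10.

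RNA was measured on 9 Affymetrix arrays, each from conventional dendritic cells (cDC) that had been sorted out of spleens of 129SvEv/Tac mice. Resting and activated cDC2 of wild-type mice (WT) and of mice lacking both AP-1 family factors Batf and Batf3 (Batf-/- Batf3-/-, DKO) gave 2 arrays per group, and resting WT cDC1 gave 1 array. Activated cells received 100 ng/ml IFN-gamma for 1 h, followed by 1 µg/ml LPS of E. coli for 3 h, and the labels do not say how long resting cells were kept. The labels also give no number of mice, no sort gates and no meaning for the replicate numbers, so a p-value here reflects sample-to-sample spread that may be purely technical. Values are log2 of the deposited intensity, a relative scale that can be compared between arrays for 1 gene and not between genes. The comparison of interest to the study was the effect of BATF proteins in cDC, and here the gap between replicate numbers is set beside the effects of genotype, activation and subset.

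Markers fitted the labels. Xcr1, a cDC1 receptor, read 9.33 on the cDC1 array and 4.42 to 4.73 on the 8 cDC2 arrays, and Irf4, a factor of cDC2, read 5.13 on the cDC1 array and 9.37 to 11.02 on the others. Batf read 5.31 to 5.44 on the 4 DKO arrays and 6.74 to 9.07 on the 4 WT cDC2 arrays, and Batf3 read 6.43 to 7.17 and 7.58 to 9.92. Array medians lay between 53.4 and 55.6 on the linear scale, which the authors' normalization to a shared distribution sets.

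Heat shock chaperones keep proteins folded and refold or hold those that stress has unfolded. HSP70 proteins bind exposed stretches of a client, J-domain proteins bring clients to HSP70 and switch on its ATPase, HSP110 proteins exchange its nucleotide, and HSP90 takes over many kinases and receptors for final folding. Heat shock factor 1 (HSF1) drives the inducible members through heat shock elements, which are inverted repeats of the unit GAA spaced by a pair of bases.

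The promoter sequences below show which chaperone genes carry such repeats near their start, as letters in the RefSeq promoter windows of assembly GRCm38.p6 (250 bases before to 50 bases after a transcript start). Of the 10 genes, 7 had a window, and Hspa8, Hsp90aa1 and Hsp90ab1 had none in the table used. A run of 3 units was searched as GAANNTTCNNGAA or TTCNNGAANNTTC, and a run of 2 units as GAANNTTC or TTCNNGAA, which lies within every run of 3. Both patterns were read on both strands. Runs of 3 units were found in 3 of the 7 genes, Hspe1, Hspd1 and Hsph1, while 0.603% of all 32851 windows and 0.662% of all 27025 genes with a window held one. Runs of 2 units were found in 6 of the 7 genes, against 15.1% of windows and 17% of genes, and Dnajb1, a J-domain partner of HSP70, was the gene with neither. A match of letters is no evidence of binding. Hspe1 and Hspd1 are transcribed away from each other, and their windows overlapped by up to 285 bases. Both therefore hold the same 18-base run of 4 units, shown in capitals on each gene's own strand, at positions -89 to -72 from the Hspe1 start (chr1:55088053-55088082, plus strand) and -144 to -127 from the Hspd1 start (minus strand). In Hsph1 the 3 units stand at positions 16 to 28 after the start of a transcript, inside the transcribed region (chr5:149636279-149636308, minus strand). A separate run of 2 units, not printed here, lies before that start, at positions -54 to -47. Dnaja1 holds 2 units at positions -124 to -117 (chr4:40722333-40722362, plus strand).
Hspe1: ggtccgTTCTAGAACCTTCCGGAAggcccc
Hspd1: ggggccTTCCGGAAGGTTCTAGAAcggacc
Hsph1: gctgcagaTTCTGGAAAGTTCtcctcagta
Dnaja1: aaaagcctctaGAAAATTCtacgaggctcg

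Hspa1a and Hspa1b are shown side by side because 1 cluster is annotated to both and none to Hspa1b alone; promoters, not probes or transcripts, are compared here. The 150 bases before each start (Hspa1a at chr17:34972157-34972306 and Hspa1b at chr17:34959239-34959388, both on the minus strand) differ at 1 base, and the whole windows agree at 296 of 300 bases, or 98.7%. The capitals mark 2 units at positions -104 to -97 in each.
Hspa1a: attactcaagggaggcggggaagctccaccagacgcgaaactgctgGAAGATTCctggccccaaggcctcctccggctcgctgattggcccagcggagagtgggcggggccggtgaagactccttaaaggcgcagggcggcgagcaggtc
Hspa1b: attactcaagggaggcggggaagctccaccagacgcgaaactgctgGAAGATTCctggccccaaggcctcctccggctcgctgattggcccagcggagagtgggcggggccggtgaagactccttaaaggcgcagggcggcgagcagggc

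In each of the 4 cDC2 groups, the array numbered 2 read higher than the array numbered 1 for all 8 chaperone genes. This gap is the reason the genes were chosen, so it is given as a description with no test. As background, 23.9% of the genes tested were higher on array 2 in all 4 groups and 19.0% were lower in all 4. The median over the 8 genes of the mean gap (replicate 2 minus replicate 1, averaged over the 4 groups) was 0.57 on the log2 scale, against 0.02 over all genes tested, where the mean gap ran from -0.40 at the 5th percentile to 0.46 at the 95th.

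Hsph1, which encodes the HSP110 protein that exchanges nucleotide on HSP70, had the widest gap of the 8. Its log2 intensity was 9.71 and 11.28 on replicates 1 and 2 of resting WT cDC2, 8.67 and 10.24 in activated WT cDC2, 9.40 and 11.33 in resting DKO cDC2, and 8.16 and 10.42 in activated DKO cDC2. Every array numbered 2 lay above every array numbered 1, whatever the genotype or state. The share of all genes tested with such a separation was not computed, here and for the genes below. The 4 gaps ran from 1.57 to 2.26 with a mean of 1.83, a 3.57-fold difference, and 1 gene of the 10728 had a larger mean gap.

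Hspa1a, the HSP70 gene with the strongest stress induction in textbooks, came next. Its log2 intensity was 7.92 and 9.30 in resting WT cDC2, 8.74 and 9.90 in activated WT cDC2, 7.17 and 8.53 in resting DKO cDC2, and 8.01 and 9.41 in activated DKO cDC2. The 4 gaps ran from 1.16 to 1.41 with a mean of 1.32, a 2.50-fold difference that ranked 10th among the genes tested. The cluster shared by Hspa1a and Hspa1b had gaps from 0.98 to 1.19. Hspa8, the constitutive HSP70 gene, had the narrowest mean gap of the 8, at 0.39, with 12.03 and 12.37 in resting WT cDC2, 12.05 and 12.36 in activated WT cDC2, 11.85 and 12.28 in resting DKO cDC2, and 11.87 and 12.33 in activated DKO cDC2.

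Chaperone genes often have processed copies elsewhere in the genome, so clusters of 1 symbol can read more than 1 locus. For Hspa8 the 3 clusters of its own symbol disagreed: the brightest had a mean gap of 0.39, a second had 0.41 and the dimmest had -0.28, with 4 of 4 gaps below 0. The sign of the Hspa8 gap therefore depends on the cluster taken. The further clusters of Hsp90aa1 (mean gaps 0.45 and 0.45), Dnaja1 (0.46), Hspd1 (0.80) and Hspe1 (0.79) had the sign of the cluster used.

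Hsp90aa1, the inducible HSP90 gene, read 11.89 and 12.47 in resting WT cDC2, 11.71 and 12.15 in activated WT cDC2, 11.73 and 12.36 in resting DKO cDC2, and 11.59 and 12.08 in activated DKO cDC2. Its mean gap was 0.54, and the arrays numbered 1 and 2 did not overlap. The J-domain genes followed the same order of arrays. Dnajb1 read 9.25 and 9.88, 9.43 and 10.06, 9.34 and 9.77, and 9.29 and 9.88 in the same order of groups, with a mean gap of 0.57. Dnaja1 read 10.25 and 10.77, 10.43 and 10.76, 9.97 and 10.58, and 10.31 and 10.55, with a mean gap of 0.42. In both J-domain genes every array numbered 2 lay above every array numbered 1. These separations are part of the gap for which the genes were chosen and have no background.

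The mitochondrial chaperonin genes shared their large steps between states. Hspe1, the HSP10 lid of the chaperonin, read 10.71 and 11.42 in resting WT cDC2, 9.64 and 10.46 in activated WT cDC2, 10.71 and 11.56 in resting DKO cDC2, and 9.76 and 10.59 in activated DKO cDC2. Its mean gap was 0.80, and both activated arrays lay below both resting arrays in each genotype. Hspd1, the HSP60 barrel, read 7.89 and 8.43, 7.26 and 7.92, 8.08 and 8.37, and 7.26 and 8.10 in the same order of groups, with a mean gap of 0.58. For Hspd1, array 2 of each activated group overlapped the resting arrays.

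**Figure D1:**
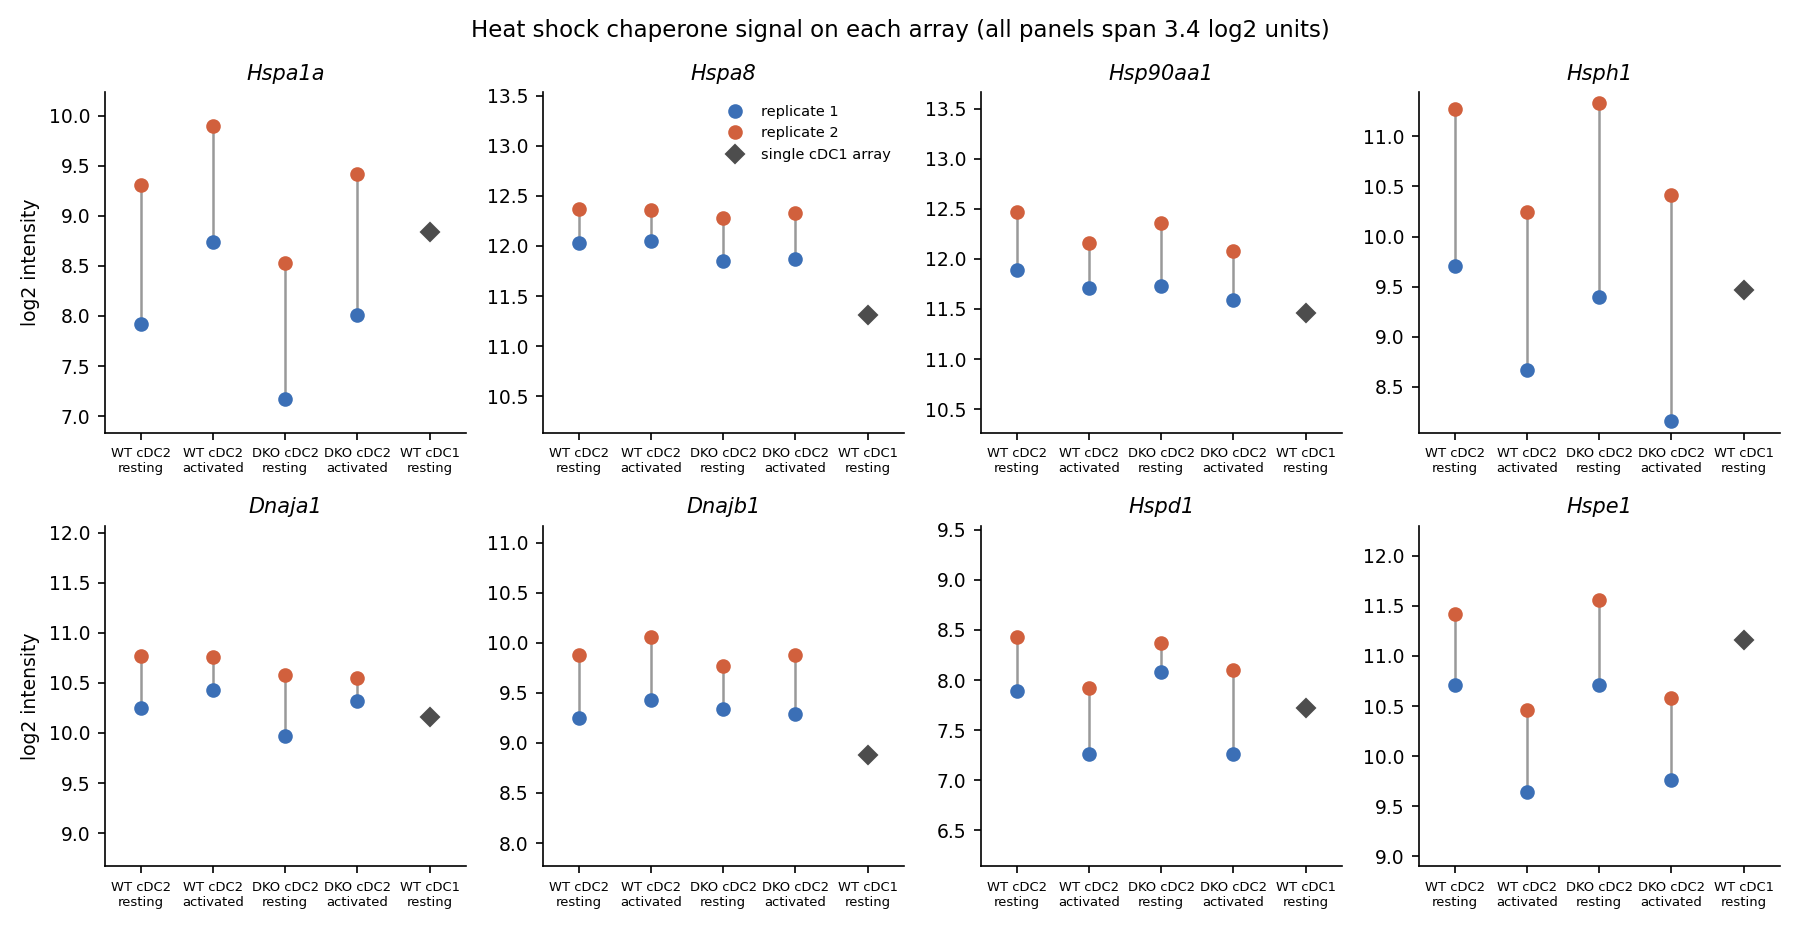
Log2 intensity of the 8 measured chaperone genes (1 panel each) in the 5 groups, with replicates 1 and 2 of a group joined by a line and the single cDC1 array as a diamond. Replicate 2 lies above replicate 1 in every cDC2 group of every panel, from a mean gap of 0.39 in Hspa8 to 1.83 in Hsph1.

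**Figure D2:**
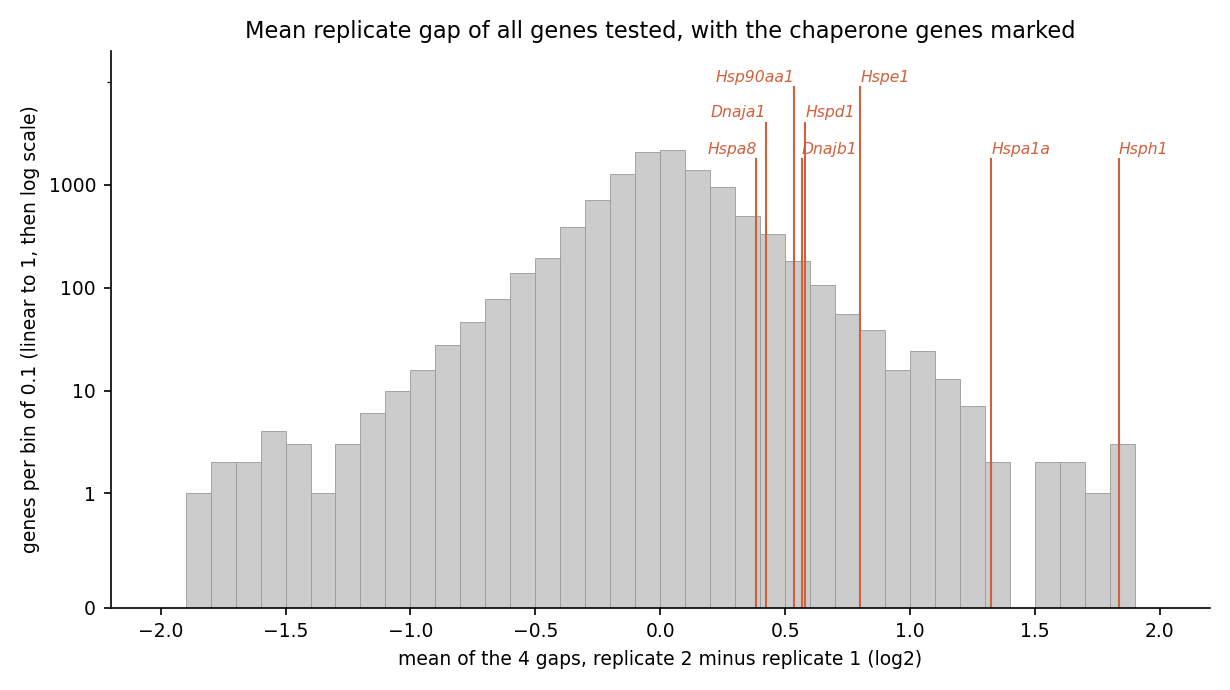
Mean gap between replicate numbers (x axis, log2) of the 10728 genes tested, as counts per bin of 0.1 on an axis that is linear to 1 and logarithmic above, with lines at the 8 chaperone genes. The 8 lines lie between 0.39 and 1.83, while the median gene lies at 0.02.

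The gap exceeded the genotype difference for 8 of 8 chaperone genes in resting and in activated cells, the activation difference for 7 of 8 in each genotype, and the subset difference for 5 of 8. The exceptions were Hspe1 for activation and Hspa8, Hsp90aa1 and Dnajb1 for subset. Over all genes tested the same held for 57.4% and 57.6% (genotype), 32.6% and 32.2% (activation in WT and DKO) and 30.4% (subset). These counts follow in part from the choice of the genes.

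**Figure D3:**
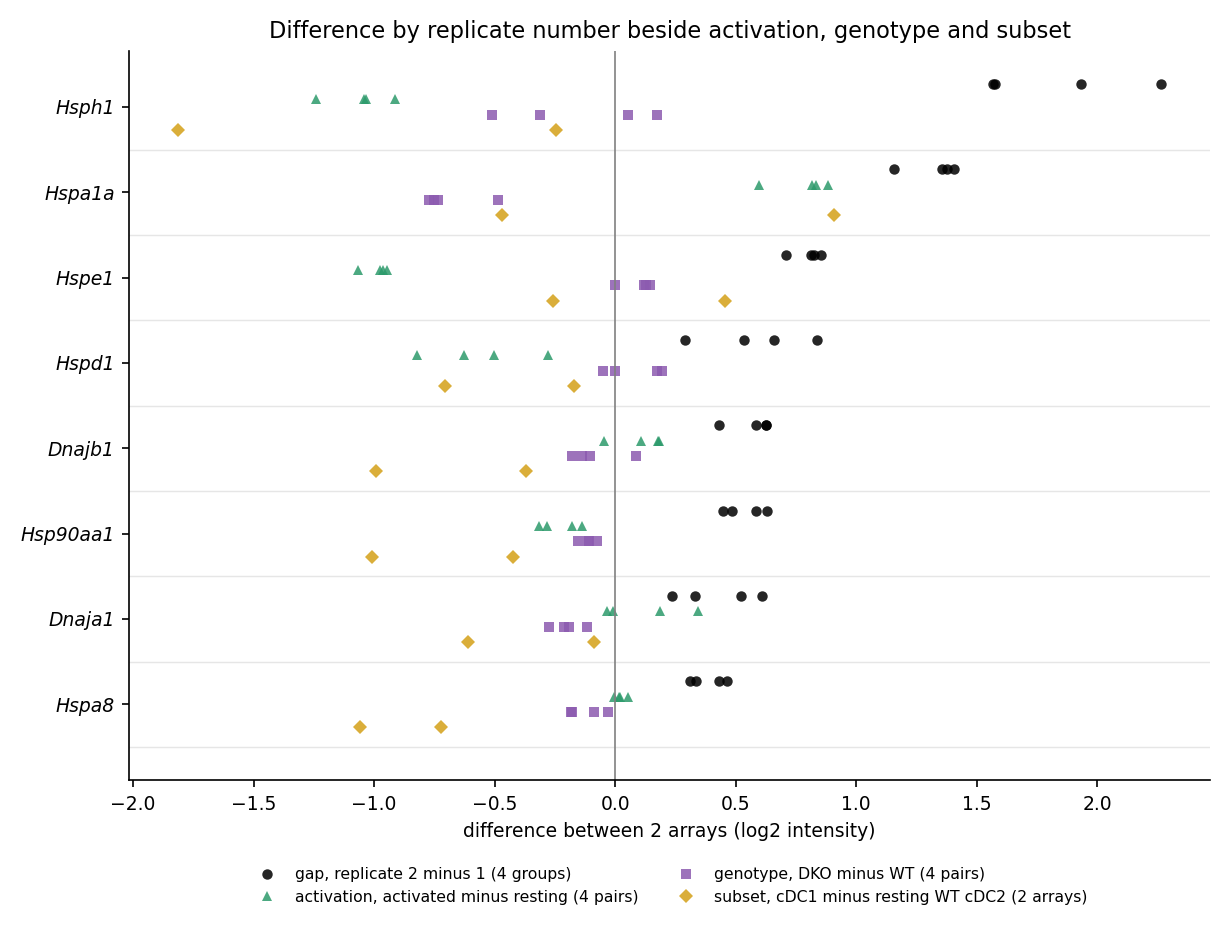
Differences between pairs of arrays (x axis, log2) for each chaperone gene: the 4 gaps between replicate numbers (circles), activation and genotype within each replicate number (triangles and squares, 4 each) and the cDC1 array minus each resting WT cDC2 array (diamonds). All circles lie above 0, and for Hspe1 the activation triangles, from -1.07 to -0.95, lie farther from 0 than the circles.

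Without a term for the replicate number, none of the 8 genes passed the threshold (adjusted p below 0.05, limma, Benjamini-Hochberg over all genes tested) in any comparison. At an unadjusted p below 0.05 the count was 0 of 8 in each except subset, with 1. Of all 10728 genes, 707, 638 and 1157 were below it for genotype (resting, activated, mean). For activation there were 3265 in WT and 3369 in DKO, for interaction 121 and for subset 3229. The gap for which the genes were chosen counts as error in this fit. Counts without the block, here and below, therefore follow in part from that choice and cannot show that an effect is absent. Across genes, the gaps of the 4 groups correlated with each other at r from 0.45 to 0.69 without the chaperone genes, and the replicate number was therefore also fitted as a block, which takes the shared gap out of the error. The block leaves each difference in group means as it was and changes its standard error. For Hsph1, for instance, the standard error of an activation effect was 1.05 without the block and 0.18 with it. What the number marks is not stated in the labels, so a difference called with the block rests on taking the numbers as pairs.

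Activation went with lower Hspe1, Hspd1 and Hsph1 and with higher Hspa1a in both genotypes once the replicate number was in the fit. In WT cDC2, 4 of the 8 genes passed the limma threshold with the block, 1 higher and 3 lower, where 35.3% of all genes did (10.5% and 0 of 8 without it). In DKO cDC2, 4 of 8 passed as well, 1 higher and 3 lower, against 38.0% of all genes (13.7% and 0 of 8 without it). A share of 4 in 8 genes is not far from that background.

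Activated minus resting Hspe1 ran from -1.07 to -0.95 within a replicate number. By limma it fell by 1.02 in WT (adjusted p 8.26e-04 with the block, 0.193 without) and by 0.96 in DKO (6.89e-04 and 0.208). Hspd1 fell by 0.57 in WT (adjusted p 0.019 with the block, 0.333 without) and by 0.55 in DKO (0.0193 and 0.338). The Hspd1 calls were lost with the block when any of the 4 WT cDC2 arrays was left out (-0.51 to -0.62, adjusted p 0.065 to 0.108), and for DKO when replicate 1 of resting or of activated DKO cDC2 was left out (-0.36 and -0.38, adjusted p 0.115 and 0.132). The second cluster of Hspe1 differed by -0.97 in WT and -0.88 in DKO, and the second cluster of Hspd1 by -0.84 and -0.70.

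Hsph1 fell by 1.04 in WT (adjusted p by limma 0.007 with the block, 0.549 without) and by 1.08 in DKO (0.0052 and 0.529), and the 4 differences within a replicate number ran from -1.24 to -0.91. In WT the call was lost without replicate 1 of the resting arrays (-0.86, adjusted p 0.0512) or replicate 2 of the activated arrays (-0.86, adjusted p 0.0622). Hspa1a went the other way. It rose by 0.71 in WT (adjusted p by limma 0.0033 with the block, 0.571 without) and by 0.86 in DKO (0.0014 and 0.48), with differences within a replicate number from 0.60 to 0.88. The cluster shared with Hspa1b was higher by 0.62 in WT and 0.54 in DKO. Calls for Hspa1a and Hspe1 with the block held under each of 15 alternatives, each array left out among them.

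The other 4 genes did not pass in either genotype, with or without the block. Hsp90aa1 differed by -0.25 in WT and -0.21 in DKO (adjusted p by limma with the block 0.0637 and 0.0966). Dnaja1 differed by 0.09 and 0.16, and Dnajb1 by 0.18 and 0.03. Hspa8 differed by 0.01 and 0.04, with 95% intervals with the block from -0.19 to 0.20 and from -0.16 to 0.24. With the block, then, the inducible HSP70 gene rose, the HSP110 gene fell, and the constitutive HSP70 gene stayed within these intervals.

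**Figure D4:**
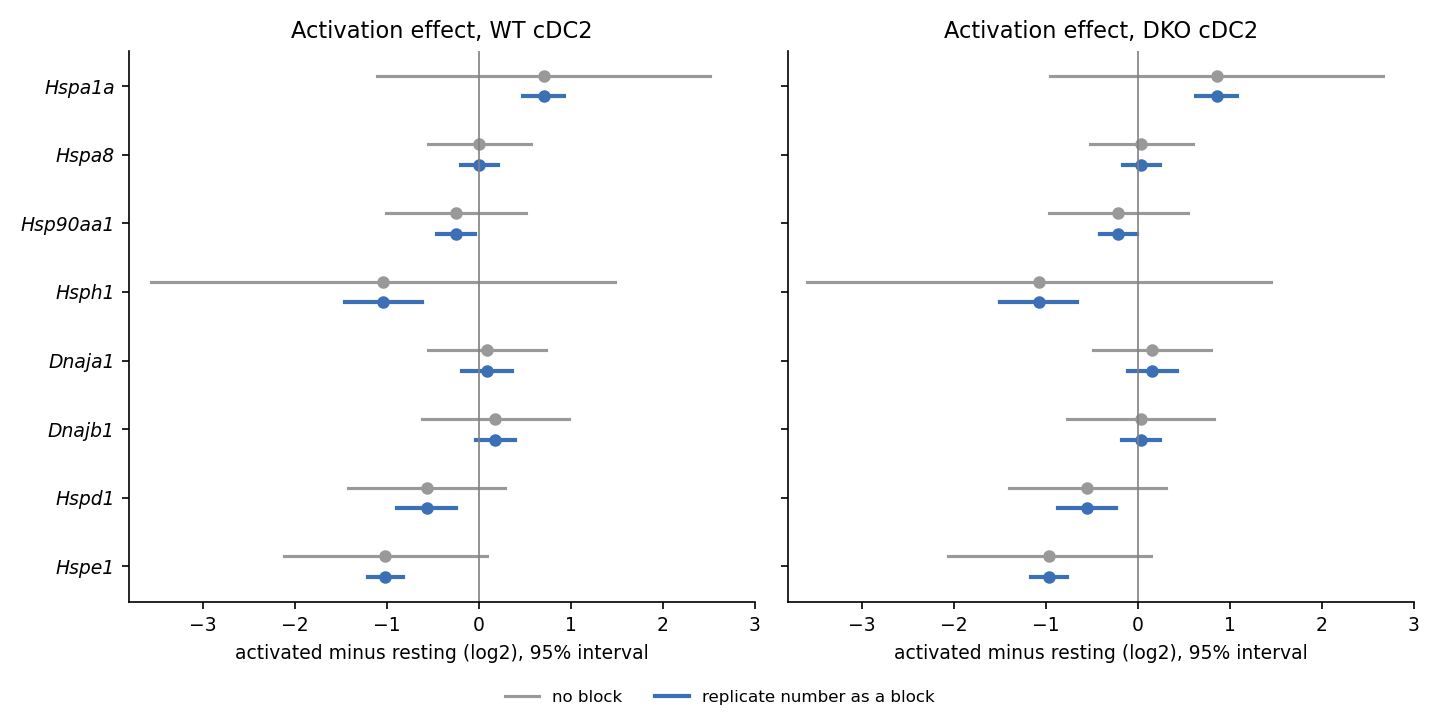
Activated minus resting difference (x axis, log2, with 95% interval) of each chaperone gene in WT (left) and DKO (right) cDC2, by limma without a block (grey) and with the replicate number as a block (blue). With the block the intervals of Hspa1a lie above 0 and those of Hsph1, Hspd1 and Hspe1 below 0 in both genotypes, and without it every interval crosses 0.

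Between DKO and WT, Hspa1a was the chaperone gene with the largest difference in both states. Without the block, 0 of 8 genes passed the limma threshold in resting cells, activated cells or the mean of both states, where 0.0186% of all genes passed in each. With the block, 1 of 8 passed in resting cells (0.736% of all genes), 0 of 8 in activated cells (0.569%) and 1 of 8 in the mean of both states (5.58%). The gene that passed was Hspa1a both times. In activated cells 1 of 8, again Hspa1a, was below an unadjusted p of 0.05 with the block, as were 1567 of all 10728 genes. In the mean of both states, 2 of 8 were below an unadjusted p of 0.05 with the block, as were 2506 of all 10728 genes. The other was Dnaja1, at -0.20 (95% interval -0.39 to -0.01, adjusted p by limma 0.195).

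Hspa1a was lower in DKO than in WT in each of the 4 pairs of arrays with the same number and state, with differences from -0.77 to -0.49. The difference was -0.76 in resting cells (adjusted p by limma 0.0307 with the block, 1 without), -0.61 in activated cells (0.0551 with the block, 1 without) and -0.69 averaged over both states (0.0069 with the block, 0.719 without). Arrays of DKO and WT overlapped in both states. The resting call was lost with the block when any 1 of the 8 cDC2 arrays was left out (differences -0.80 to -0.73, adjusted p 0.0604 to 0.181), whereas the call in the mean of both states held under 15 of 15 alternatives, with adjusted p from 0.0067 to 0.0428. The cluster shared with Hspa1b differed by -0.46 in resting and -0.55 in activated DKO cells.

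Of the other 7 genes, Hspa8, Hsp90aa1 and Dnaja1 were also lower in DKO in 4 of 4 pairs on the clusters used. Their differences reached down to -0.18, -0.15 and -0.27, with no call. The share of all genes tested that did so was not computed. For Hspa8 the sign depended on the cluster. Its dimmest cluster was higher in DKO, by 0.10 in resting and 0.16 in activated cells, while its second was lower. The further Hsp90aa1 clusters differed by -0.02 and -0.04 in resting and by -0.11 and -0.13 in activated cells. Hsph1 and Hspd1 were higher in 2 of 4 pairs and lower in the other 2. In resting cells, the 95% interval with the block reached from -0.55 to 0.29 for Hsph1 and from -0.22 to 0.20 for Dnajb1. No chaperone gene passed the test of whether activation acted differently in the genotypes: this interaction lay between -0.15 and 0.15 for the 8 genes, with an adjusted p of 1 in limma with and without the block and 0 of 8 genes past an unadjusted p of 0.05. Across all genes the interaction had 0% called in either fit, with 121 genes at an unadjusted p below 0.05 without the block and 368 with it. For Hsph1 the interval of the interaction with the block still spanned -0.63 to 0.56.

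The single cDC1 array read lower than both resting WT cDC2 arrays for 6 of the 8 genes, on the clusters used. The share of all genes tested that did so was not computed, so this count is a description without a background. Its log2 intensities were 11.31 for Hspa8, 11.46 for Hsp90aa1, 9.47 for Hsph1, 10.16 for Dnaja1, 8.88 for Dnajb1 and 7.72 for Hspd1. For Hspa1a (8.83) and Hspe1 (11.16) it lay between the replicates. On the second Hspd1 cluster it also lay between them, at 6.96 against 6.74 and 7.43. On the further clusters of Hspa8, Hsp90aa1 and Dnaja1 it was lower than both. Without the block, 0 of 8 genes passed by limma (13.6% of all genes). Hspa8 alone of the 8 was below an unadjusted p of 0.05, as were 3229 of all 10728 genes. The cDC1 array carries no replicate number, and the fit with the block sets it at the midpoint of numbers 1 and 2 by assumption. If it carries a gap of its own, that gap and the subset difference cannot be told apart.

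Under that assumption the standard error of the Hsph1 subset difference went from 1.28 without the block to 0.22 with it, and 4 of 8 genes were below the threshold, all with lower values in cDC1 (33.3% of all genes). These were Hspa8 at -0.89 (adjusted p 0.0014, 0.0928 without), Hsp90aa1 at -0.72 (0.0033, 0.275 without), Hsph1 at -1.03 (0.0124, 0.664 without) and Dnajb1 at -0.68 (0.0043, 0.322 without). The adjusted p-values with the block hold only for a cDC1 array at the midpoint. For genes with a wide gap the difference depended on the cDC2 array taken. For Hsph1 the cDC1 array minus cDC2 replicate 1 was -0.24 and minus replicate 2 was -1.81, and for Hspa1a these were 0.91 and -0.47. For Hspa8 both differences were below 0, at -0.72 and -1.06. The Hsph1 call was lost without replicate 1 of resting WT cDC2 (-0.85, adjusted p 0.0534). With 1 cDC1 array, its spread was taken from the cDC2 groups.

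The gap was also read in genes that work with these chaperones. Of 26 tested co-chaperones of HSP70 and HSP90, 18 were higher on array 2 in all 4 groups and 3 lower, with a median gap of 0.13. The widest were Ahsa1 (1.22) and Ahsa2 (0.98), which stimulate the HSP90 ATPase, Chordc1 (0.85), an HSP90 partner, and Stip1 (0.76), which links HSP70 to HSP90. Among 22 other HSP70, HSP110 and J-domain genes, 8 were higher and 6 lower in all 4 groups, with Hspa4l (0.98) and Hspa1l (0.86) widest. Of 14 genes of the TRiC chaperonin and prefoldin, 4 were higher and 1 lower. The 15 mitochondrial chaperones and proteases other than Hspd1 and Hspe1 had a median of 0.02, with 1 higher and 3 lower.

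The endoplasmic reticulum chaperones ran the other way, with 13 of 21 lower on array 2 in all 4 groups, 1 higher and a median of -0.26. Hspa5, the HSP70 protein of that compartment, had a mean gap of -0.47, and Herpud1 had -0.76. Targets of the oxidative and metal stress factors had a median of -0.39, with 7 of 10 lower and 1 higher, among them Hmox1 at -0.76. Immediate early and dissociation response genes had a median of -0.13, with 13 of 30 lower and 3 higher. Small heat shock proteins (median 0.05, 1 of 6 higher), heat shock factors and regulators (0.05, 1 of 6 higher and 2 lower) and proteasome genes (0.07, 10 of 31 higher and 8 lower) lay near the background. Pathway lists, like the 10 genes, were written with earlier results known, and these counts carry no test.

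**Figure D5:**
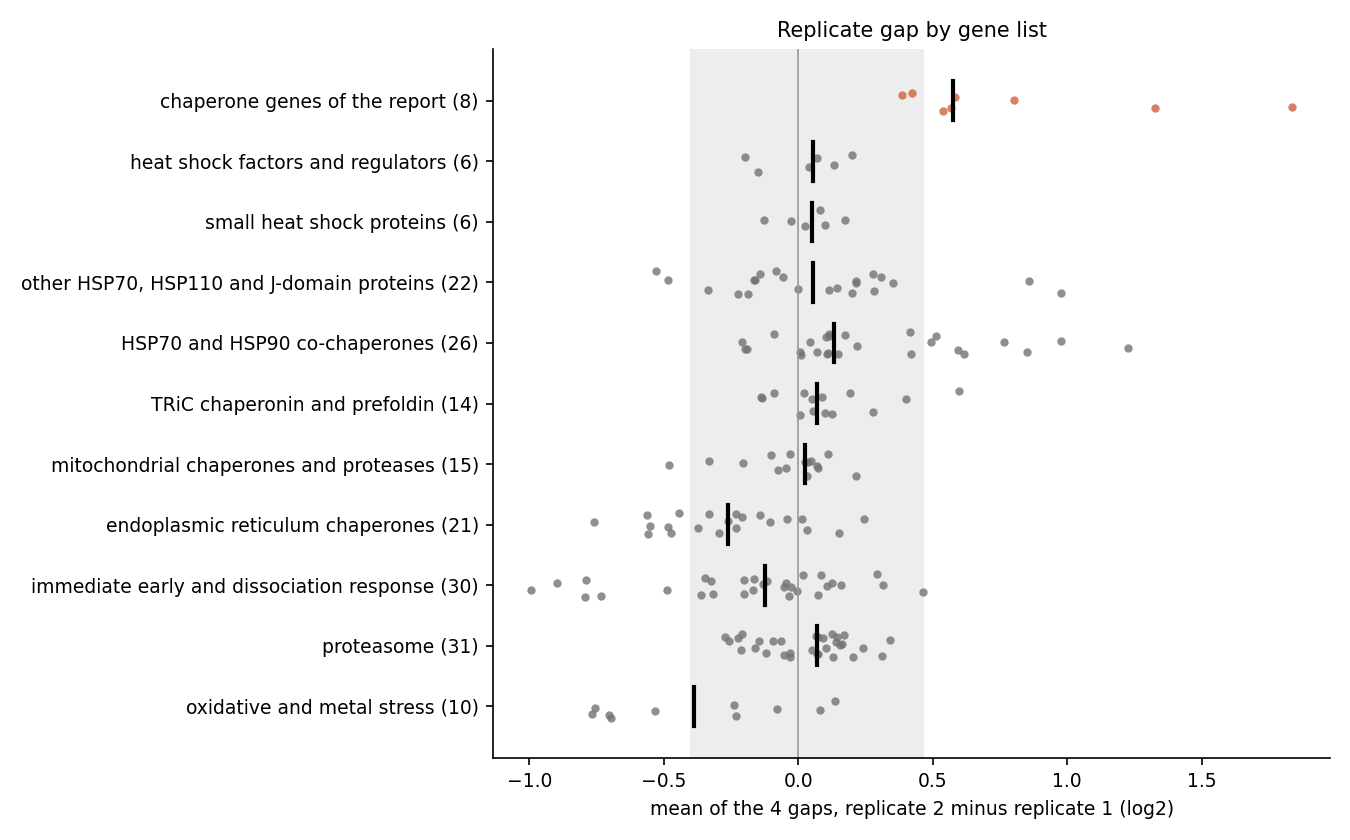
Mean gap between replicate numbers (x axis, log2) of each tested gene in the chaperone set and in 10 related gene lists, with the number of genes in brackets, a bar at the median and shading from the 5th to the 95th percentile of all genes tested. The chaperone set has a median of 0.57, the endoplasmic reticulum list -0.26 and the oxidative and metal stress list -0.39.

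In the comparisons of the design, calls in these lists are given by limma without the block unless stated. For genotype the count was 0 in all 10 lists, where 0.0186% of all genes passed. With the block, in the mean of both states (5.58% of all genes), 3 of 21 endoplasmic reticulum genes were lower in DKO and 1 higher. So were 2 of 30 immediate early genes and 2 of 10 oxidative and metal stress genes lower, with 0 higher. In the list of 22, 1 was lower, and of the 14 TRiC and prefoldin genes 1 was higher. Upon activation, where 10.5% of all genes passed in WT and 13.7% in DKO, Dnajb14, a J-domain gene, fell by 1.33 in WT (adjusted p 0.0143) and 1.30 in DKO (0.0102). In the same list of 22, Hspa2, an HSP70 gene, rose by 0.57 in WT (0.0386) and the J-domain gene Dnajc21 by 0.55 in DKO (0.0473). Among the 15 mitochondrial genes, 2 were lower in WT and 3 in DKO. Clpp, a protease subunit, fell by 1.15 (0.0318) and 0.96 (0.0396), and Trap1, the mitochondrial HSP90, fell by 0.53 (0.0237) and 0.47 (0.0227). Hscb, a J-domain gene of iron-sulfur cluster assembly, fell by 0.57 in DKO (0.0458).

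P4hb, a protein disulfide isomerase, was the 1 of 21 endoplasmic reticulum genes called, and fell by 0.84 (0.0272) and 0.90 (0.0163). Of the 14 TRiC and prefoldin genes, the TRiC subunit gene Cct6a fell by 0.51 in WT (0.0434) and by 0.38 in DKO (0.078, not called). The prefoldin gene Pfdn6 fell by 0.42 in DKO (0.0497) and by 0.37 in WT (0.0791, not called). Each gene named upon activation in 1 genotype only, here, above and below, changed in the same direction in the other, and none was called for interaction. Of the 26 co-chaperones, Sugt1 rose by 0.48 in both (0.0487 and 0.0437). With the block 2 co-chaperones were higher and 7 lower in WT and 2 higher and 8 lower in DKO, shares near the 35.3% and 38.0% of all genes that passed with it.

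In the immediate early and dissociation response list, 4 of 30 genes were higher in WT, and 4 were higher and 1 lower in DKO. These shares were near the 10.5% and 13.7% of all genes that passed. Socs3, a feedback inhibitor of cytokine signalling, rose by 2.50 in WT (adjusted p by limma 0.0068) and 2.37 in DKO (0.0048). The transcription factor gene Klf6 rose by 1.19 (0.0114) and 1.18 (0.0084), and Dusp2, a phosphatase gene, by 0.93 (0.0294) and 1.34 (0.0082). Ppp1r15a rose by 0.91 in WT (0.0219) and by 0.91 in DKO (0.0153). Fosl2, an AP-1 gene, was lower in DKO, at -1.07 (0.028). Of the 10 oxidative and metal stress genes, Gclc, which acts in glutathione synthesis, fell by 1.63 in WT (0.0379) and fell by 1.86 in DKO (0.0208). Nqo1, a quinone reductase gene, fell by 0.72 in DKO (0.0475). Among heat shock factors and regulators, small heat shock proteins and proteasome genes the count was 0 in both genotypes.

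In cDC1 against resting WT cDC2, 13.6% of all genes passed without the block. Hsf2, a heat shock factor, was lower, at -2.10 (adjusted p by limma 0.0021), the 1 of 6 in its list. The small heat shock protein gene Hspb1 was higher by 1.70 (0.0032) and Hspb11 by 0.86 (0.0238), of 6 tested. The J-domain gene Dnajb4 was lower, at -1.09 (0.0129), the 1 of 22 in its list. Of the 26 co-chaperones, Bag1 was higher by 0.62 (0.0453) and Tomm34 lower, at -0.58 (0.0357).

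The prefoldin genes Pfdn5 and Pfdn6 were higher in cDC1 by 0.77 each (adjusted p by limma 0.0145 and 0.0154), of 14 in their list. Of the 15 mitochondrial genes, Hscb was higher by 1.07 (0.0125) and Yme1l1, a protease gene, lower, at -0.55 (0.0362). Dnajc10, a J-domain gene of the endoplasmic reticulum, was higher by 1.10 (0.0027), the 1 of 21. Of 30 immediate early genes 3 were lower: Jun at -2.27 (8.34e-04), Nr4a3 at -1.79 (0.0118) and Fosl2 at -1.38 (0.023). Of 31 proteasome genes, Psmb1 was higher by 0.77 (0.027) and Psmb3 by 0.68 (0.0161), and of 10 oxidative and metal stress genes, Gclc by 2.32 (0.0187) and Mt1, a metallothionein gene, by 0.69 (0.0145).

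Genes outside the set whose log2 values followed the mean of the 8 genes most closely over the 9 arrays were Exoc6b (Pearson r 0.98), Zfyve27 (0.97), Ahsa1 (0.96), Chordc1 (0.96), Ahsa2 (0.95), Fndc10 (0.95), Hdac3 (0.95), Bag3 (0.94), Plod1 (0.94) and Pqlc3 (0.93). The points share the same arrays and the same split by replicate number, and the values are a description. Between the 8 genes themselves r over the 9 arrays ran from 0.08 to 0.94 with a median of 0.62. Of these 10 genes, 4 (Ahsa1, Ahsa2, Chordc1 and Bag3) are partners of HSP70 or HSP90 from the co-chaperone list. Genes with the widest gaps in the same direction were others: Oas3 (1.84), Ifi27l2a (1.70), Bst2 (1.70), Slfn1 (1.68), Parp3 (1.60), Ms4a6d (1.55), Ifi44l (1.37), Kdr (1.30), Fam53b (1.29) and Nudt17 (1.27). Oas3, Ifi27l2a, Bst2 and Ifi44l are known interferon-induced genes, outside the chaperone systems.

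Summed linear intensity of marker lists was set beside the gap for cell types that a sort could hold. For the 11 cDC2 markers it ran from 3114 to 3703 on the arrays numbered 1 and from 2919 to 3869 on those numbered 2, and for the 6 markers of all cDC from 24464 to 25300 and from 23643 to 24846. The sum of 6 plasmacytoid markers on the array was higher on array 2 in 4 of 4 groups. Replicates 1 and 2 read 2153 and 6534 for resting WT and 4104 and 7308 for activated WT cDC2. They read 1427 and 3396 for resting DKO and 4032 and 6074 for activated DKO cDC2. Of the 4 tested genes in this sum, 2 were higher in all 4 groups, Bst2 among them, and 1 was lower. The median of their mean gaps was 0.11, while Bst2, named above as interferon-induced, had a mean gap of 1.70. How far the plasmacytoid sum follows Bst2 alone was not tested. T cell marker sums were lower on array 2 in 4 of 4 groups (289 and 258, 274 and 248, 278 and 259, and 251 and 240 in the same order of groups). So were those of NK cells (1020 and 1004, 499 and 289, 1041 and 991, and 445 and 280) and of monocytes (1384 and 985, 822 and 636, 951 and 879, and 607 and 539). B and plasma cell marker sums were lower on array 2 in the 2 DKO groups and higher in the 2 WT groups, between 241 and 271 in all. Most markers in 3 of these sums were below the brightness threshold. Only 2 of 6 T cell, 2 of 7 NK cell and 2 of 7 B and plasma cell markers on the array passed it, against 4 of 6 for monocytes. Of the 2 tested T cell genes, 1 was higher and 1 lower on array 2 in all 4 groups. Macrophage marker sums were lower on array 2 in 3 of 4 groups and neutrophil sums in 2 of 4. The 2 erythroid markers on the array were below the brightness threshold. The part of other cells in the gap was not tested. In sorted bulk samples, fewer cells of a type and less RNA per cell cannot be told apart.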

How the data were processed

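Total RNA of 9 sorted cDC samples was labelled with a kit for picogram amounts and hybridised to Affymetrix arrays, per the labels' protocols. The deposited intensity values are linear, 1 per transcript cluster and array, and the submitters' processing notes name RMA in Affymetrix Expression Console with no version number. RMA brings arrays to a shared distribution, so a difference in total RNA is not visible. The design had foreseen log2 values, and log2 of each value was taken first.

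The 10 genes, the 10 pathway lists and the 11 marker lists were chosen with earlier results of these data known. Symbols came from the platform annotation of the 28853 clusters, of which 21789 carried 1 symbol. The cluster with the highest mean was taken per gene. Genes with a group mean above 61.3 (linear) in at least 1 group were tested, 10728 in all.

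limma 3.58.1 in R 4.3.3 fitted all 9 arrays with a mean per group (4 residual degrees of freedom), two-sided, with Benjamini-Hochberg adjustment over all genes tested. With replicate number added as a block, 3 were left. Groups share these numbers in the labels. The gaps of each pair of groups correlated at 0.45 or more over 10720 genes, so the numbers were taken as pairs, from the data and not from a stated design. The scripts were tested on simulated data. Depth does not apply, and the number of arrays limits the precision. Alternatives were no brightness filter, quantile normalization, median centring, an intensity trend, array weights, the mean of all clusters, fewer arrays in the fit and each array left out.

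All 10 genes were named. From the pathway lists, genes past the threshold were named, at most 4 per list and comparison by size. Ppp1r15a upon activation in DKO was named beyond these 4. Genes of widest gap were chosen after their values were seen. Genes of like pattern were ranked by Pearson r or by gap, leaving out provisional, microRNA, small nucleolar and receptor segment symbols. Promoter windows came from RefSeq (GRCm38.p6).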

Additional observations from a re-analysis of the deposited data

How the results depend on the processing

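Without the block, the count of chaperone genes past the threshold was 0 of 8 in all 7 comparisons and stayed 0 under each alternative without it, except subset, where it was 1 with the mean of all clusters of a gene (Hspa8, -0.93, adjusted p by limma 0.0158). This was 1 of the 236 values of single genes computed. With the replicate number as a block, the counts became 1 for genotype in resting cells, 1 for the mean of both states, 4 for activation in WT, 4 in DKO and 4 for subset, and the block changed no other count of chaperone genes. Over all genes tested, counts went from 2 to 79, 2 to 61 and 2 to 599 for genotype (resting, activated, mean), from 1131 to 3791 and 1472 to 4080 for activation, and from 1464 to 3573 for subset.

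Further settings with the block were added after the data were seen. With 1 array left out in turn and the block kept, the count for genotype in resting cells ran from 0 to 1 and that for activation in WT from 2 to 4. Without the block, leaving out 1 array moved the Hspa1a genotype difference in activated cells from -1.31 to 0.0917, and the Hsph1 activation difference in DKO from -2.21 to 0.0545. Both signs turned without replicate 1 of activated DKO cDC2, which leaves replicate 2 alone in that group.

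The mean gap of the 8 genes kept its sign under each alternative run. Taking the mean of all clusters lowered that of Hspa8 from 0.39 to 0.17. Limits are the 2 arrays per cDC2 group, the single cDC1 array, replicate numbers of unstated meaning, and chaperone clusters that may read near-identical copies.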

Other observations

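Clusters annotated to a chaperone gene together with a small RNA were kept out of the tests, and their values are given here. A pair of clusters annotated to Hspa8 with Snord14c and Snord14d, small nucleolar RNAs, had mean gaps between replicate numbers of 0.76 and 0.75, each with the array numbered 2 higher in 4 of 4 groups. The cDC1 array minus the mean of resting WT cDC2 was -1.70 for both, where the Hspa8 cluster in the report differed by -0.89. A cluster annotated to Dnaja1 with Mir207 had a mean gap of 0.02, against 0.42 for the Dnaja1 cluster in the report. Clusters annotated to 1 gene thus gave different values, and this difference was not tested.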
